A study of Mus musculus with 12 samples.

Results

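MiR-126, miR-143, miR-145, miR-199 and miR-214 are the vascular and mesenchymal miRNAs, and they were followed here in small RNA libraries of the mouse hippocampus. Members were chosen by name alone, as every row of the deposited miRNA table named miR-126, miR-143, miR-145, miR-199 or miR-214 with any letter, copy or arm. This gave 9 of 495 named rows, namely 2 endothelial rows (miR-126-5p and miR-126-3p), 4 mural rows (miR-143, miR-143*, miR-145 and miR-145*) and 3 mesenchymal rows (miR-199a-3p, miR-199a-5p and miR-199b). An asterisk marks the minor arm of a hairpin in the older naming of the table. The rows of miR-199a-3p and miR-199b held identical counts in all 12 libraries and were taken as 1 measurement, which leaves 8 separate rows. No row of miR-214 entered, and its mature form is not analysed here.

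The libraries came from the dissected CA1 subfield of C57BL/6J mice aged 3 to 5 months. All mice carried floxed Kat2a alleles (Kat2afl/fl). The 6 Control libraries have no Cre in their labelled genotype, and the 6 Kat2a cKO libraries are from mice that also carried CamKIIα-cre (Kat2afl/fl;CamKIIα-cre+). The labels do not say that each library is a separate mouse, so p-values measure the spread between libraries, which may in part be technical. The CamKIIα promoter drives Cre in forebrain excitatory neurons, so the deletion is aimed at neurons and not at the vessel wall or meninges, and the dissected tissue held all of these cells. Kat2a encodes an enzyme that puts acetyl groups on histones.

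The blood vessels of the brain have an inner layer of endothelial cells, a mural layer of pericytes and smooth muscle cells, and perivascular and meningeal fibroblasts around them. MiR-126 is made from an intron of Egfl7, an endothelial gene, and is known for holding back inhibitors of VEGF signalling. MiR-143 and miR-145 are processed from 1 long non-coding transcript (Carmn) and are known for keeping smooth muscle cells in their contractile state. The Mir199 hairpins lie inside dynamin genes (Mir199a-1 in Dnm2, Mir199a-2 in Dnm3, Mir199b in Dnm1) but on the opposite strand, so the dynamin mRNAs are not their precursors. Mir199a-2 also lies with Mir214, on the same strand, inside Dnm3os, a transcript of mesenchymal cells.

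Of the 9 member rows, 4 had a mature sequence in the RefSeq table (GRCm38.p6), and these are shown because they set which copies can be told apart. Capitals mark the seed, bases 2 to 8 from the 5′ end. MiR-126-3p corresponds to miR-126a-3p at chr2:26591402-26591423 on the plus strand. MiR-199a-5p comes from chr1:162217844-162217866 on the plus strand and from chr9:21496537-21496559 on the minus strand. MiR-199a-3p comes from chr1:162217883-162217904 on the plus strand and chr9:21496498-21496519 on the minus strand, and miR-199b-3p from chr2:32318524-32318545 on the plus strand.
miR-126a-3p: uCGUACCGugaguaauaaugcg
miR-199a-5p: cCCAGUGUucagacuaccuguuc
miR-199a-3p: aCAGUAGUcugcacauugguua
miR-199b-3p: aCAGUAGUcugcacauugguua
The last 2 sequences are the same letter for letter, so reads of this sequence cannot be given to 1 of its 3 hairpins. The 5p sequence occurs in 2 hairpins, Mir199a-1 and Mir199a-2. No other mature name in the table had the seed of miR-126a-3p or of miR-199a-5p. For Mir199b no mature 5p arm was given, but its hairpin, printed below, also holds the letters CCAGUGU of the miR-199a-5p seed. The missing name therefore does not show that this seed is unique.

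The hairpins show where the arms lie. Capitals here mark the mature sequences that the RefSeq table gives for each hairpin.
Mir126a: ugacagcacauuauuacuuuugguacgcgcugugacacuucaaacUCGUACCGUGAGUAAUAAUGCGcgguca
Mir199a-1: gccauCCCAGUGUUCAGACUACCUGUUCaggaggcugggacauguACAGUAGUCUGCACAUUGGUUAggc
Mir199a-2: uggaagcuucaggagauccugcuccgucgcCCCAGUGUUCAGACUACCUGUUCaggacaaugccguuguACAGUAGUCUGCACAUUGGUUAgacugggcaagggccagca
Mir199b: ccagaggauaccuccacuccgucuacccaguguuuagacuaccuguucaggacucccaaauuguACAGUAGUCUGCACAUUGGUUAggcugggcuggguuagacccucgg
The 3p arm is the same in all 3 Mir199 hairpins and the 5p arm in Mir199a-1 and Mir199a-2, while the letters around them differ.

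Depth and checks came first. The miRNA table held 2449121 to 10116062 reads a library, and the table of all RNAs 1119938 to 4464600. Kat2a, the targeted gene, had 0 to 8 reads per library, 23 over all Control and 13 over all cKO libraries (means 2.23 ± 2.44 and 0.95 ± 0.97 CPM with SD over 6 libraries; p = 0.28, exact permutation, two-sided), so its loss was not detectable at this depth. Neuronal miRNAs (13 rows of miR-9, miR-128, miR-132 and others) summed to 58018 to 78427 CPM per Control library and 61567 to 68028 CPM per cKO library. CPM is the read count scaled to library depth with TMM factors. The labels name no batch. Libraries numbered 1 to 3 stand apart from those numbered 4 to 6 in some members in both groups, and values are then given for both sets.

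The members together held 1.32% to 2.38% of miRNA counts per library, on average 1.86 ± 0.41% for Control and 2.09 ± 0.36% for cKO (SD over 6 libraries). Endothelial miR-126-5p and mural miR-143 made up most of this, at ranks 23 and 29 of the 495 rows by mean level, and each was above the other in 6 of 12 libraries, so their order was not resolved. Below them came miR-126-3p (rank 71), miR-145 (178), miR-199a-3p (226), miR-145* (280), miR-199a-5p (396) and miR-143* (479). Each of these lay below its upper neighbour in 12 of 12 libraries, except that miR-145* lay below miR-199a-3p in 11 of 12. The counts behind the last of them were thin, 1 to 25 per library for miR-143* and 13 to 122 for miR-199a-5p, against 18818 to 103779 for miR-126-5p.

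The comparison of Control with Kat2a cKO asked whether these vessel and mesenchyme miRNAs differ between floxed Kat2a mice without and with CamKIIα-cre. Cre and the deletion of Kat2a go together in these groups and cannot be told apart. None of the 8 passed the test over all miRNAs (edgeR quasi-likelihood test, Benjamini-Hochberg adjusted p = 0.997 for each), where 1 of 494 tested miRNAs passed (0.202%). DESeq2 also called 0 of the 8. At an unadjusted p under 0.05 in edgeR there were 2, the arms of miR-199a, both with higher values in cKO, against 4.25% of tested miRNAs in either direction and 2.83% in that one. Under the 22 alternatives miR-199a-5p was at or above 0.05 in 1 (unadjusted p 0.0029 to 0.082) and miR-199a-3p in 8 (0.013 to 0.18), among them the replicate block, the total of both tables and the fits without Control 1, Control 2, Control 4, cKO 2 or cKO 6. These arms share hairpins and are not separate loci. Of the 8 rows 6 were fitted higher in cKO and 2 lower, at a median log2 fold change of 0.15, beside 243 higher and 251 lower and a median of -0.00 over all tested miRNAs. In bulk tissue, a change in the number of cells of a type and a change in RNA per cell cannot be told apart.

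**Figure D1:**
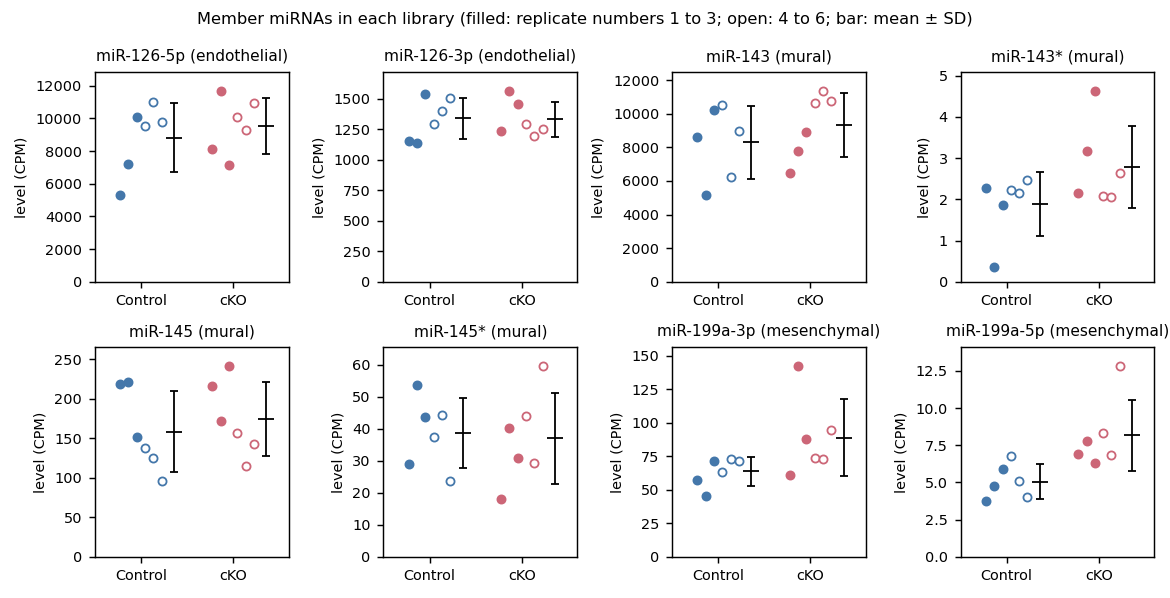
Level of each member miRNA (CPM, vertical axes from 0) in the 6 Control and 6 cKO libraries, with filled points for replicate numbers 1 to 3, open points for 4 to 6, and the mean ± SD beside each group. The groups overlap in every panel; 5 of 6 cKO points of miR-199a-5p lie above the highest Control point.

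MiR-126 is the endothelial member. MiR-126-5p, the arm with more reads here, ran from 5328 CPM over a median of 9638 CPM to 11029 CPM in Control. In cKO it ran from 7127 over a median of 9702 to 11676 CPM. The groups overlapped almost fully, and the lowest libraries were Control 1 (5328 CPM), cKO 3 (7127 CPM) and Control 2 (7225 CPM), all with replicate numbers 1 to 3. Means were 8827 ± 2128 and 9541 ± 1711 CPM (SD over 6 libraries), and the log2 fold change was 0.11 ± 0.18 (SE; 95% interval -0.27 to 0.50). Without Control 1 it was -0.00026.

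MiR-126-3p, the arm with the seed CGUACCG, held a steadier level. It ran from 1139 over a median of 1349 to 1536 CPM in Control, and from 1196 over 1275 to 1563 CPM in cKO. Means were 1338 ± 171 and 1334 ± 143.4 CPM (SD over 6 libraries), and the log2 fold change was -0.01 ± 0.13 (SE; 95% interval -0.27 to 0.26). Its coefficient of variation over the 12 libraries was 11.3%, and 23 of the 494 tested miRNAs had a lower one, while the median was 26.1%. For the other arm it was 20.5%. The interval of miR-126-3p leaves out changes beyond 0.27 on the log2 scale in either direction, so it bounds a difference and does not show that the groups are equal.

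Of the mural pair, miR-143 was the abundant one. It ran from 5153 over a median of 8791 to 10541 CPM in Control, and from 6500.4 over 9776 to 11347 CPM in cKO. The lowest library was Control 2 and the highest were cKO 5 (11347 CPM), cKO 6 (10745 CPM) and cKO 4 (10657 CPM), with Control 4 close behind at 10541 CPM. Means were 8287 ± 2174 and 9322 ± 1918 CPM (SD over 6 libraries), and the log2 fold change was 0.17 ± 0.19 (SE; 95% interval -0.25 to 0.59). The higher cKO mean came from the libraries numbered 4 to 6, where the means were 8569 CPM in Control and 10916 CPM in cKO (log2 fold change 0.34). In numbers 1 to 3 they were 8006 and 7729 CPM (-0.037).

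MiR-145, which comes from the same Carmn transcript as miR-143, is known for the same role and lay far lower. It ran from 95.9 over a median of 144.8 to 221.6 CPM in Control, and from 115 over 165 to 242 CPM in cKO, with a log2 fold change of 0.14 ± 0.23 (SE; 95% interval -0.36 to 0.63). Its level went with the replicate number in both groups, a pattern not tested here. Libraries numbered 1 to 3 had 152.2 to 242 CPM and those numbered 4 to 6 had 95.9 to 157 CPM, so the 2 sets overlapped only between Control 3 (152.2 CPM) and cKO 4 (157 CPM). The ranges of miR-143 overlapped more, with 5153 to 10242 CPM in numbers 1 to 3 and 6205 to 11347 CPM in numbers 4 to 6.

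The minor arms of the mural hairpins had wide spreads. MiR-145* ran from 23.7 over a median of 40.5 to 53.8 CPM in Control and from 18.1 over 35.6 to 59.6 CPM in cKO, with cKO libraries both lowest (cKO 1) and highest (cKO 6). Its log2 fold change was -0.05 ± 0.26 (SE; 95% interval -0.61 to 0.51). MiR-143* ran from 0.37 over 2.19 to 2.47 CPM in Control and from 2.07 over 2.39 to 4.63 CPM in cKO. The lowest value was a single count in Control 2, and the highest was in cKO 3. Its log2 fold change was 0.48 ± 0.29 (SE; 95% interval -0.15 to 1.11), which was 1.12 in numbers 1 to 3 and -0.0043 in numbers 4 to 6. All 6 cKO libraries of miR-143* lay above the Control mean, as they did for miR-199a-5p, 2 of 8 members against 3.64% of all tested miRNAs. For miR-143* this rested on Control 2, without which the Control mean was 2.19 CPM and 3 of 6 cKO libraries lay above it.

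Of the members, the mesenchymal miR-199a-5p had the highest fitted fold change, and miR-199a-3p stood level with the thinly counted miR-143*. For miR-199a-3p, the pool of reads from 3 hairpins, Control libraries ran from 45.3 over a median of 67.5 to 73.3 CPM. In cKO they ran from 60.9 over 81.1 to 142.5 CPM. Of the 6 cKO libraries 4 were above every Control library, by little in cKO 4 (73.9 CPM) and by most in cKO 2 (142.5 CPM), while cKO 1 (60.9 CPM) and cKO 5 (73.1 CPM) lay within the Control range. Means were 63.8 ± 10.99 and 88.9 ± 28.9 CPM (SD over 6 libraries), and the log2 fold change was 0.48 ± 0.20 (SE; 95% interval 0.05 to 0.91; edgeR unadjusted p = 0.032, adjusted p = 0.997). Without cKO 2 it was 0.29. Among libraries numbered 1 to 3 it was 0.76, among those numbered 4 to 6 it was 0.21.

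MiR-199a-5p, from the other strand of the stem, ran from 3.78 over a median of 4.91 to 6.79 CPM in Control. In cKO it ran from 6.29 over 7.35 to 12.8 CPM. Of the 6 cKO libraries 5 were above every Control library, and of the 6 Control libraries 5 were below every cKO library. Only Control 4 (6.79 CPM) and cKO 3 (6.29 CPM) crossed, so the groups did overlap; 0.405% of tested miRNAs had groups with no overlap. Means were 5.06 ± 1.15 and 8.17 ± 2.40 CPM (SD over 6 libraries), and the log2 fold change was 0.69 ± 0.21 (SE; 95% interval 0.23 to 1.15; edgeR unadjusted p = 0.0059, adjusted p = 0.997). The highest library was cKO 6 at 12.8 CPM, without which the log2 fold change was 0.50. Among libraries numbered 1 to 3 it was 0.54, among those numbered 4 to 6 it was 0.80. The adjusted p stayed above the threshold of 0.05 under each alternative run, from 0.25 to 0.998.

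**Figure D2:**
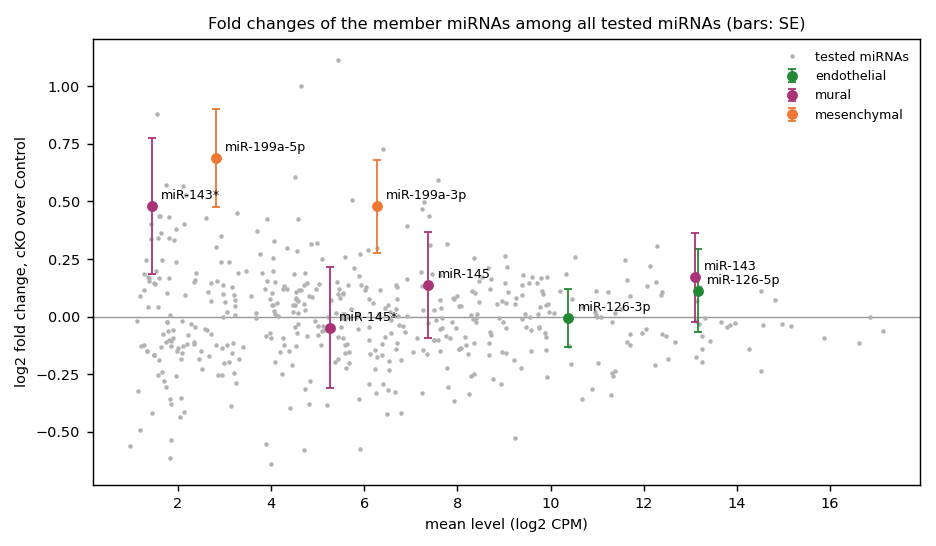
Fitted log2 fold change (cKO over Control) against mean level (log2 CPM) for the 494 tested miRNAs in grey, with the 8 members in colour by role and their SE as bars. The endothelial and mural members of high level lie near 0, and the 2 arms of miR-199a lie at 0.48 and 0.69.

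The share of reads on each arm of a hairpin does not depend on how libraries are scaled, so it gives a second view of the same counts. MiR-126 was dominated by its 5p arm, with 86.5 ± 2.27% of the reads of both arms in Control and 87.5 ± 2.37% in cKO libraries (SD over 6). MiR-143 put 99.98 ± 0.01% and 99.97 ± 0.01% on its major arm. MiR-145 put 79.8 ± 4.78% and 81.7 ± 7.77% on its major arm. In miR-199a the 3p arm, with reads of 3 hairpins against 2 for the 5p arm, held 92.5 ± 1.81% and 91.2 ± 2.498%.

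The 4 differences in arm share were all within the spread of libraries. They were 1.03, -0.01, 1.90 and -1.32 percentage points for mir-126, mir-143, mir-145 and mir-199a, with two-sided p = 0.45, 0.22, 0.62 and 0.32 by exact permutation (6 against 6 libraries; adjusted over the 4 hairpins 0.60, 0.60, 0.62 and 0.60). The widest range was that of mir-145, from 70.5% in cKO 6 to 92.3% in cKO 1. The share of mir-126 was lowest in Control 1 (82.2%) and cKO 3 (83.1%), the 2 libraries in which miR-126-5p was also lowest, and 86.4% to 89.7% in the other 10. The share of mir-199a was lowest in cKO 6 (88.1%), where miR-199a-5p was highest, and highest in cKO 2 (94.8%), where miR-199a-3p was highest. Each share is computed from these arm counts, so an extreme arm and an extreme share are not separate observations.

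**Figure D3:**
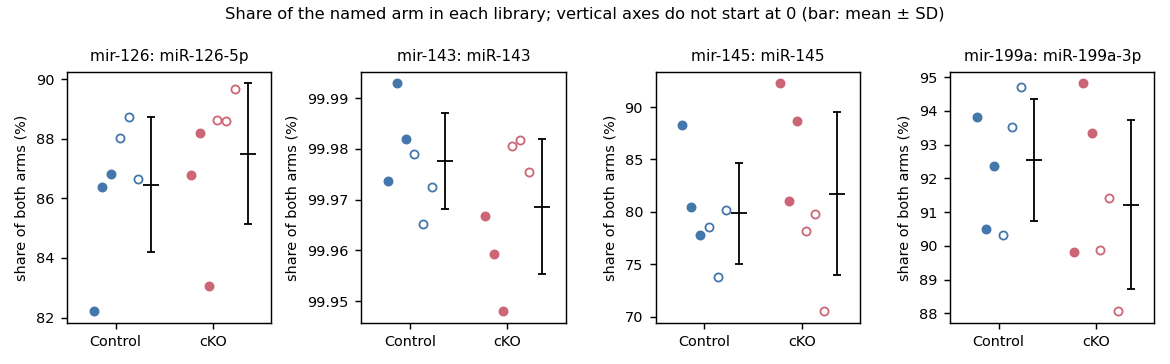
Share of the reads of both arms that fell on the named arm (%, vertical axes not from 0) for 4 hairpins in each library, with filled points for replicate numbers 1 to 3, open points for 4 to 6, and the mean ± SD of each group. Control 1 and cKO 3 are the low points of mir-126 at 82.2% and 83.1%.

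The members were also set beside each other and beside all other miRNAs over the libraries. Likeness was taken as the Pearson correlation of log2 CPM deviations from the group means over 12 libraries, where all miRNAs of a library share its depth, and is a description only. A second value follows where the difference between the sets of replicate numbers was also removed. For miR-126-5p the 3 most similar miRNAs outside the members were miR-30d* (0.97), let-7g (0.94) and miR-137 (0.94), while its own partner arm miR-126-3p stood at 0.57, and at 0.70 with the sets removed. For miR-143 they were miR-532-5p (0.89), miR-329* (0.87) and miR-381 (0.86), while its partner arm miR-143* stood at 0.46, and at 0.78 with the sets removed. MiR-145 stood at -0.51 to miR-143 and at -0.73 to miR-126-5p, and at -0.30 and -0.59 with the sets removed. For miR-199a-3p they were miR-376b (0.83), let-7a (0.82) and miR-203 (0.81), with miR-126-3p next at 0.80 and the partner arm miR-199a-5p at 0.23, and at 0.33 with the sets removed.

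Precursor rows in the table of all RNAs gave a second count of the same loci, in rows named by RefSeq transcript. Its columns give the group but not the replicate, so libraries carry letters and were not matched to the values above. The rows of Mir126a, Mir143, Mir145a and the 3 Mir199 hairpins passed the count filter, and none of the 1846 tested rows passed an adjusted p of 0.05 in edgeR (0%), where 81 had an unadjusted p under 0.05 (4.39%); DESeq2 called 10, none of them among the rows named here. For Mir126a the means were 1406 ± 420 CPM in Control and 1368 ± 297 CPM in cKO libraries (SD over 6), and the log2 fold change was -0.04 ± 0.23 (SE). Mir143 had 14867 ± 3993 and 16953 ± 5591 CPM (0.19 ± 0.28), and Mir145a 61.8 ± 13.2 and 58.0 ± 18.7 CPM (-0.09 ± 0.26).

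The tables did not count these loci alike. Over all libraries the Mir143 row held 494464 reads, which is 71.8% of the 688697 reads of both miR-143 arms in the miRNA table. The Mir126a row held 41484 reads, only 5.15% of the 805225 reads of both miR-126 arms. The Mir145a row held 12.3% of its arms' reads, and the 3 Mir199 rows together 21.1%. How reads were assigned in either table is not given in the sources used here, so levels of these loci cannot be set across the tables.

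The 3 Mir199 rows each gave higher mean values in cKO, with overlapping groups. Mir199a-1 had 1.72 to 10.5 CPM in Control and 2.41 to 26.3 CPM in cKO (log2 fold change 1.08 ± 0.54, SE). Mir199a-2 had 1.75 to 22.95 and 2.30 to 45.9 CPM (0.68 ± 0.76), and without cKO b its log2 fold change was -0.025. Mir199b had 4.83 to 34.0 and 9.23 to 36.6 CPM (0.29 ± 0.44). These hairpins share the 3p arm printed above, so reads on that arm cannot be given to 1 copy, and whether such reads were split between the rows or counted in each is not known. The sum of the 3 rows ran from 27.2 to 43.0 CPM in Control and from 35.1 to 88.8 CPM in cKO, on average 35.8 ± 6.55 and 54.3 ± 20.5 CPM (SD over 6 libraries). Libraries cKO b (88.8 CPM), cKO c (62.5 CPM) and cKO f (60.4 CPM) were above every Control library, and the other 3 were within the Control range. Mir214, the neighbour of Mir199a-2 in Dnm3os, had 5 reads in all 12 libraries together, so no difference was detectable at this depth.

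**Figure D4:**
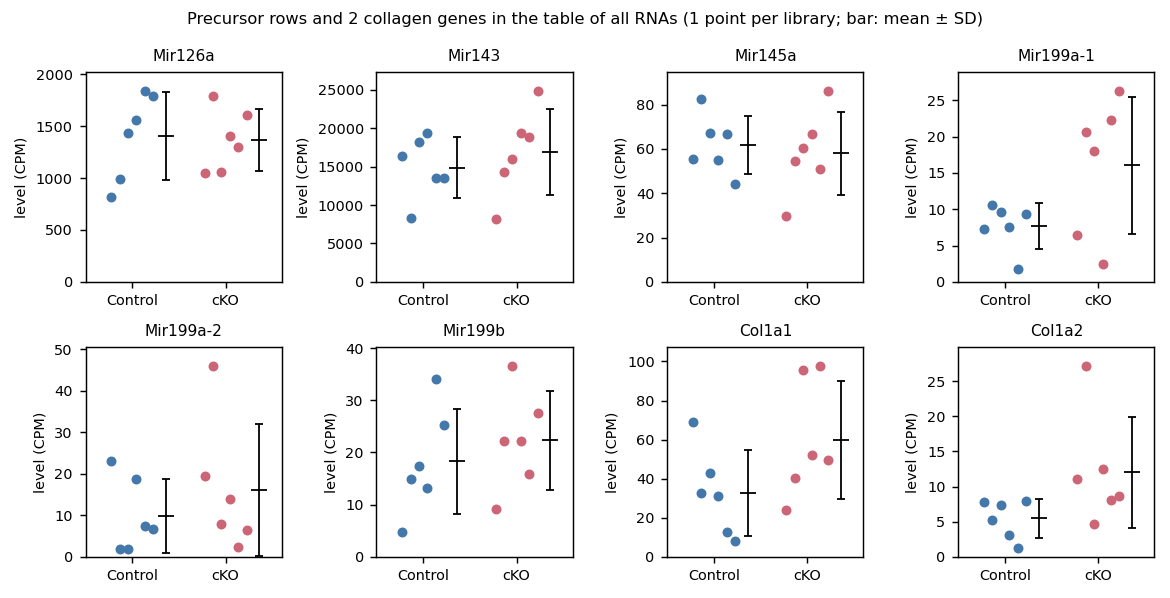
Level (CPM, vertical axes from 0) of 6 precursor rows and of the collagen genes Col1a1 and Col1a2 in the table of all RNAs, 1 point per library with the mean ± SD of each group. The same library, cKO b, carries the highest points of Mir199a-2 (45.9 CPM) and Col1a2 (27.2 CPM).

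Reads on the genes around the hairpins were few. Egfl7, which holds Mir126a on the same strand, had 10 reads over the Control and 13 over the cKO libraries. Scaled to depth this was 0.88 ± 0.78 and 0.70 ± 0.45 CPM (SD over 6 libraries). Dnm3os, which holds Mir199a-2 and Mir214 on the same strand, had 6.16 ± 3.21 and 4.67 ± 2.52 CPM (SD over 6 libraries), and the log2 fold change was -0.32 ± 0.50 (SE). Dnm1, a neuronal dynamin gene on the strand opposite to Mir199b, had 6.81 ± 2.85 and 6.28 ± 2.07 CPM (-0.11 ± 0.31). Dnm2, opposite to Mir199a-1, had 15 and 13 reads (1.30 ± 0.62 and 0.76 ± 0.44 CPM). Dnm3, opposite to Mir199a-2, had 50 and 95 reads (3.75 ± 1.27 and 7.70 ± 6.26 CPM). All 6 cKO libraries of Dnm3 lay above its Control mean, with 20.3 CPM in cKO a. Dnm2 and Dnm3 lay in rows below the count filter and were not tested. Neither tested row, Dnm3os or Dnm1, had the higher cKO mean seen in the miR-199 rows, and neither passed the test.

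Marker genes of the vessel wall were also thinly covered in this table. All 15 endothelial genes listed had reads but none passed the count filter, and their summed level was 15.1 to 50.9 CPM per Control library and 14.1 to 17.5 CPM per cKO library. The Control upper end was library Control b, without which it was 23.9 CPM. The most covered was Cldn5, a tight junction gene, with 46 and 43 reads (4.67 ± 5.58 and 2.37 ± 2.21 CPM, SD over 6 libraries). All 13 mural genes had reads, with sums of 11.04 to 58.8 and 17.8 to 27.7 CPM, and Notch3, a receptor of mural cells, led with 57 and 39 reads, of which 33 were in Control b and 24 in the other Control libraries. Without Control b the Control sums of the mural genes ended at 22.6 CPM. None of the markers was at 0 over all libraries, and no endothelial or mural gene could be tested.

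The 13 fibroblast and meningeal genes, the cells for which miR-199a is known, summed to 32.3 to 93.6 CPM in Control and 72.9 to 129 CPM in cKO libraries. Of these genes 2 could be tested, the collagen genes Col1a1 and Col1a2. Col1a1 had 7.96 to 68.9 CPM in Control and 24.01 to 97.7 CPM in cKO, a log2 fold change of 0.88 ± 0.51 (SE). Col1a2 had 1.29 to 7.96 CPM and 4.63 to 27.2 CPM (1.14 ± 0.49, edgeR unadjusted p = 0.038, adjusted p = 0.9999). Its log2 fold change was 0.71 without cKO b (edgeR unadjusted p = 0.13) and 1.34 without cKO c (edgeR unadjusted p = 0.017). These were the lowest and highest values with a single library left out. Both collagen genes had higher means in cKO with overlapping groups, and neither passed the test. Without these 2 genes the sums of the other 11 were 29.4 ± 12.6 CPM for Control and 28.8 ± 10.1 CPM for cKO (SD over 6 libraries). Of the 11, 6 had a higher and 5 a lower mean in cKO. The most covered of the 11 was Vcan, a matrix proteoglycan that oligodendrocyte precursors also make. It had 246 reads in rows below the count filter, with 12.8 ± 10.4 CPM in Control and 8.12 ± 9.09 CPM in cKO. Its lower cKO mean weighs on the sum of the 11, so the near-equal sums do not show that the other genes were level. The fibroblast genes Dcn and Lum had 30 and 6 reads over all libraries, with means of 0.98 and 0.34 CPM in Control and 0.91 and 0.14 CPM in cKO. Twist1 and Slc6a13 also had lower means in cKO. The 6 with a higher cKO mean were Ptgds, Igf2, Sparc, Fn1, Col3a1 and Pdgfra. Of these, Fn1 (105 reads) had means of 3.43 CPM in Control and 3.74 CPM in cKO. Sparc (94 reads) had 2.87 and 3.88 CPM, and Igf2 (64 reads) had 1.52 and 2.72 CPM. None of the 11 was tested. These values stand beside the higher miR-199 values, and their part in them was not tested.

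Other vessel-linked miRNAs gave no common direction. Of 32 tested rows of this list, which includes miR-21, miR-100, miR-210 and the miR-221 pair, 18 were fitted higher in cKO and 14 lower (median log2 fold change 0.02), and 0 passed (edgeR; 2 had an unadjusted p under 0.05). DESeq2 called 1 of them, miR-221, at a log2 fold change of -0.32 (DESeq2 adjusted p = 0.013). Control libraries had 2114 ± 189 CPM of it and cKO libraries 1700.3 ± 101.8 CPM, in edgeR -0.31 ± 0.11 on the log2 scale (SE; adjusted p = 0.997). Its most abundant row, miR-100, had 3247 ± 1246 and 3451 ± 1074 CPM (SD over 6 libraries), and the log2 fold change was 0.09 ± 0.25 (SE). Of 6 rows linked to muscle and mesenchyme, 5 had a higher and 1 a lower level, with a median of 0.11, and 0 passed in edgeR (1 at an unadjusted p under 0.05) or in DESeq2. The most abundant of them, miR-22, had 62134 ± 8214 and 58216 ± 6859 CPM (-0.09 ± 0.12). Names of this list were matched exactly, which found rows for 4 names and none for miR-1, miR-206, miR-196a and miR-615. The rows of miR-1a (-0.16 ± 0.24) and miR-1b-5p (-0.14 ± 0.23) were thereby left out. Both were fitted lower in cKO, and neither passed in edgeR.

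Markers of other cells that a dissected CA1 could hold were set beside the members. The 4 rows of red blood cell miRNAs, the blood inside the vessels, were all fitted higher in cKO (median log2 fold change 0.30), and 0 passed in edgeR (1, miR-451, at an unadjusted p under 0.05) or in DESeq2; their sum was 3655 to 17907 CPM per Control and 6029 to 18183 CPM per cKO library, nearly all of it miR-486 (8533 ± 5409 and 9513 ± 4539 CPM). The 8 choroid plexus and epithelial rows had a median of 0.14, with 5 higher and 3 lower, sums of 2868 to 7243 and 3256 to 7704 CPM, and miR-204 as the most abundant (0.13 ± 0.29). One of them, miR-203, was the single miRNA that passed, going from 63.3 ± 8.29 to 105 ± 11.02 CPM (edgeR adjusted p = 0.039), a call that was lost when any 1 of the 12 libraries was left out. The 6 microglia and leukocyte rows had a median of 0.01 and sums of 1507 to 2490.0 and 1590 to 2400 CPM, with miR-146b as the most abundant (0.08 ± 0.17). The 5 oligodendrocyte rows had a median of -0.24 and sums of 2559 to 4369 and 2571 to 4052 CPM, with miR-338-3p as the most abundant (-0.24 ± 0.19). The 13 neuron rows had a median of -0.03, with 3 higher and 10 lower, and miR-9 as the most abundant (-0.03 ± 0.17). The part of these cells in the values of miR-199a was not tested.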

How the data were processed

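Small RNA was sequenced from 12 CA1 samples. TRI Reagent extraction, DNase treatment, an Illumina small RNA kit and a gel cut made the libraries, per the labels' protocols. CASAVA is named in the submitters' processing notes; aligner, annotation and build are not given in the sources used here. The authors deposited raw read counts per miRNA (495 named rows; 1 unnamed row with 0.00015% of reads was left out), per transcript (35230 rows, 26081 matched to a symbol by accession in RefSeq GRCm38.p6) and per misc RNA (4645 rows), per the file headers. No miRNA row has a mean below 10 counts over the Control libraries, so rows look chosen on the Control mean, which could tilt thin rows near it towards lower cKO values; miRNAs below it are not analysed here.

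Counts were analysed with edgeR 4.0.16 in R 4.3.3: filtering by filterByExpr, TMM scaling, and quasi-likelihood tests of cKO against Control (two-sided), with p-values adjusted by Benjamini-Hochberg over all rows tested and a threshold of 0.05. SEs and 95% intervals come from that fit. Arm shares were compared by exact two-sided permutation over 924 assignments. Alternatives were RLE factors, DESeq2 1.42.0, other filters, library size summed over the miRNA table and the misc RNA table, a replicate block, the set of replicate numbers, each set alone and each library left out; leaving out the identical miR-199b row, and marker or member values without Control b, Control 2 or the collagen genes, were added after seeing the data. Strands of genes came from GENCODE M21. P-values measure the spread between these libraries, and PCR reads carry no molecular identifiers. In simulated counts of the miRNA table (494 tested) the test recovered 42.4% of 1.5-fold, 84.8% of 2-fold and 93.8% of 4-fold changes; in the table of all RNAs the shares were 0%, 2.99% and 53.0% (1846 tested). Those simulations changed 98 of the 494 miRNAs and 200 of the 1846 rows at once, and drew libraries without sets of replicate numbers. So many changed rows loosen the adjusted threshold, so recovery would be lower where few rows change. The members and lists were chosen with earlier results of these data known. Every member and precursor row is named, and of each list the most abundant row and any that passed in edgeR. MiR-221, miR-451, miR-1a, miR-1b-5p and the 11 fibroblast and meningeal genes other than Col1a1 and Col1a2 were named after their values were seen.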

Additional observations from a re-analysis of the deposited data

Results flagged for a closer look

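A single library stood far from its group for 5 of 44 groups checked, each of 6 values; about 1 in 20 groups, here 2.20, would do so by chance. The measure is the distance from the outermost value to the nearest one as a part of the whole range. For miR-143* it was 0.71, with Control 2 lowest at a single count. In the cKO group of miR-199a-5p it was 0.69, with 12.8 CPM in cKO 6. The arm share of mir-126 gave 0.64, with Control 1 lowest at 82.2%. In the table of all RNAs Col1a2 gave 0.65, with cKO b highest at 27.2 CPM, and Mir199a-1 gave 0.63, with Control e lowest at 1.72 CPM.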

How the results depend on the processing

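No member passed under any of the 22 alternatives run for it, and no arm share under any of 15. The log2 fold changes of miR-145, miR-199a-3p and miR-199a-5p kept their sign under all 22. The number of miRNAs called was 1 and became 2 with DESeq2 and 0 with the total of both tables as library size, with the replicate block, in numbers 1 to 3 alone, in numbers 4 to 6 alone and without each library in turn (0 to 0); fewer libraries are a part of the last 3. In the table of all RNAs 0 rows were called, 10 with DESeq2 and 0 to 2 without a library. Signs turned near 0: without a library miR-126-5p ranged from -0.00026 to 0.18, miR-126-3p from -0.056 to 0.038, miR-145* from -0.25 to 0.083, Mir126a from -0.13 to 0.088, Mir145a from -0.19 to 0.065, Mir199a-2 from -0.025 to 1.12 and Dnm1 from -0.24 to 0.10. In numbers 1 to 3 alone miR-143 had -0.037 and miR-126-3p 0.16; in numbers 4 to 6 alone miR-145* had 0.33 and miR-143* -0.0043. With no filter Mir126a had 0.017 and Mir145a 0.062. The arm share difference of mir-145 was -0.20 to 4.15 percentage points without a library and -1.35 in numbers 4 to 6, that of mir-143 0.0071 there, and that of mir-199a 0.43 in numbers 1 to 3. That of mir-126 was 0.18 without Control 1. The cause of these turns was not tested. Same-numbered libraries of the 2 groups deviated together in 5 of 6 pairs (correlations -0.15 to 0.67). The median over pairs with different numbers was -0.03. Of 6 Control libraries 1 correlated best with its own number. The labels do not say that the numbers pair mice, and the main fit did not pair them. With the replicate block miR-199a-5p had a log2 fold change of 0.67 and miR-199a-3p 0.43. Thin counts limit miR-143*, miR-199a-5p and every marker gene.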

Other observations

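The misc RNA table held entries for the same precursors under older names, with far fewer reads. Mir126 had 122 reads over the Control and 186 over the cKO libraries (6.08 ± 2.62 and 7.12 ± 2.85 CPM over the total of that table, SD, 6 libraries each). Mir143 had 4 and 18 reads, 0 to 4 per library. The other 5 entries, for Mir145, Mir199a-1, Mir199a-2, Mir199b and Mir214, had 0 of 49996949 counts, which allows up to 0.0600 CPM (3 counts of that total, counting error only). These values were not tested.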
